A study of Mus musculus with 10 samples.

Results

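Ribosome biogenesis is the making of ribosomes in the nucleolus, and the 37 genes described here are a named list of ribosome assembly factors, nucleolar proteins and RNA polymerase I subunits, together with Odc1, the rate-limiting enzyme of polyamine synthesis. They were picked by name from a count table of 46316 genes, with earlier results of these data known. All 37 were found, and all 37 were among the 17718 genes with enough counts to be tested. RNA had been sequenced from B cells sorted from the spleens of 10 C57BL/6 mice, of which 3 were pBIC10, 3 were pBIC and 4 were YC.

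The pBIC mice carry p53 F/F, Blimp1 F/F, IKK2ca stopF/stopF and Cg1Cre/+, and serve as a mouse model of the ABC form of diffuse large B cell lymphoma (ABC-DLBCL). The Cre recombinase is made from the Cγ1 locus, which is switched on in germinal centre B cells. The pBIC10 mice have the same alleles and also IL-10 F/F. YC mice carry YFPstopF/+ with the same Cg1Cre/+ and none of the lymphoma alleles. Their cells are normal B220+YFP+ germinal centre B cells from a secondary response to sheep red blood cells, collected 10 days after the second injection, which itself followed the first by 20 days. Lymphoma cells were B220+GFP+ and came from moribund mice. Several label fields of YC carry the lymphoma wording, so the design text was followed for that group. The mice were 2 females and 1 male (replicate 3) in pBIC10, 3 females in pBIC, and 3 females and 1 male (replicate 3) in YC, and their ages are not used here.

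Ribosomes are assembled around ribosomal RNA, which RNA polymerase I transcribes in the nucleolus. Small nucleolar ribonucleoproteins modify that RNA at chosen bases, and large sets of assembly factors then fold it, cut it and load it with ribosomal proteins to form a small and a large subunit. Many of these factors are textbook targets of the transcription factor MYC, and their output is tied to cell growth. Germinal centre B cells and B cell lymphomas are both fast-growing cells.

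The libraries held 12590117 to 19134178 counts, and no member had fewer than 303 counts in any library. Levels are given as CPM, the usual depth-scaled count, after TMM (a correction for differences in composition between libraries). B cell markers were present in all libraries, with a summed level of 6106 to 7603 CPM in YC, 1301 to 2808 CPM in pBIC and 2297 to 3787 CPM in pBIC10, with 6 of 6 called lower in pBIC and 5 of 6 in pBIC10 than in YC. The 7 germinal centre markers were summed to 625 to 1150 CPM in YC, 62.0 to 79.7 CPM in pBIC and 38.2 to 57.3 CPM in pBIC10, and 7 of 7 were called lower in each lymphoma. Gcsam was at 0 in 4 of the 6 lymphoma libraries. Il10 stood at 2.71, 1.99 and 4.77 CPM in pBIC10, 19.4, 6.84 and 8.78 CPM in pBIC and 4.23, 7.45, 7.14 and 9.98 CPM in YC, and it fell in pBIC10 against pBIC (log2 fold change -1.88 ± 0.46, adjusted p = 0.00809). Trp53 was at 176 to 198 CPM in YC and 18.3 to 53.3 CPM over both lymphomas, Prdm1 (Blimp1) at 16.8 to 39.6 and 0.351 to 16.3 CPM, and Ikbkb (IKK2) at 126 to 166 and 223 to 422 CPM. Counts cover whole genes, so a transcript that keeps undeleted exons is included. One heavy chain variable segment, Ighv7-3, led all 3 pBIC10 libraries with 67.4 to 70.5% of heavy chain variable counts, and Ighv8-11 led all 3 pBIC libraries with 51.6 to 59.1%. Each YC library had another leading segment, with at most 10.9%. The p-values therefore measure the spread between libraries that, within a lymphoma group, share a leading segment, and if each lymphoma group is 1 clone, clone and genotype cannot be told apart. The labels mark the 7 libraries of pBIC and YC as re-analysed and the 3 of pBIC10 not, so series and group cannot be told apart in either comparison that involves pBIC10.

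The first question was how the ribosome biogenesis genes in lymphoma cells compare with those in normal germinal centre B cells. Most of them were higher in both lymphomas. Among the assembly roles, small subunit assembly had the smallest share called higher, with 7 of 9 genes in pBIC and 5 in pBIC10. The 37 genes together took 0.430 to 0.611% of all counts in the 4 YC libraries, 1.04 to 1.19% in the 3 pBIC libraries and 1.06 to 1.27% in the 3 pBIC10 libraries. In pBIC against YC, 34 of 37 rose and 0 fell at an adjusted p under 0.05, where 26.4% of all tested genes rose and 27.7% fell. In pBIC10 against YC, 28 rose and 1 fell, against 24.8% and 26.9% of all tested genes. The median log2 fold change of the 37 was 0.86 in pBIC and 1.04 in pBIC10, and over all tested genes it was 0.02 and 0.01. A rise of at least 2-fold that was also called was found in 13 of the 37 genes in pBIC and in 19 in pBIC10, against 14.2% and 14.8% of all tested genes. These comparisons share the YC libraries, so they are not independent of each other. In bulk RNA from sorted cells, fewer cells of a type and less RNA per cell cannot be told apart.

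All libraries of pBIC lay above all libraries of YC for 31 of the 37 genes and below for 0, and over all tested genes this held for 26.3% and 28.0%. All libraries of pBIC10 lay above all of YC for 29 genes and below for 1, against 30.0% and 31.0% of all tested genes. The gene below was Odc1. Of the 34 calls in pBIC against YC, 28 were made in each of the other 21 settings tried, and of the 29 calls in pBIC10 against YC, 27 were.

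**Figure D1:**
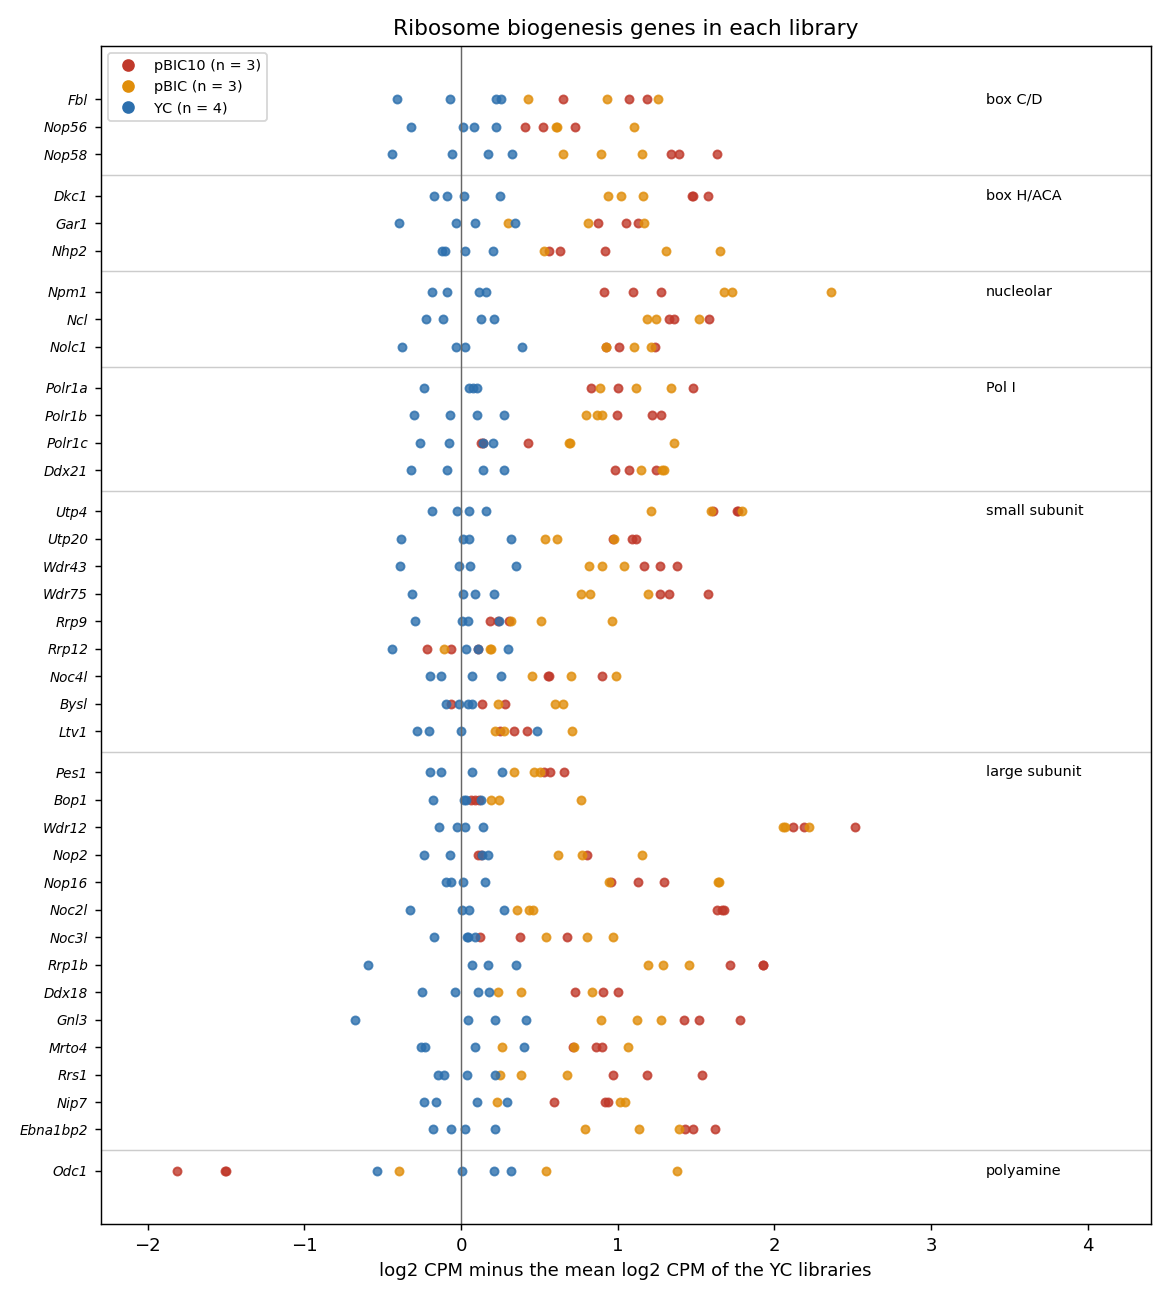
Level of each of the 37 genes in each library, as log2 CPM minus the mean log2 CPM of the 4 YC libraries, grouped by role (Pol I, RNA polymerase I). Points are libraries; the lymphoma points lie to the right of the YC points for most genes, Wdr12 lies furthest right, and the 3 pBIC10 points of Odc1 lie to the left.

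The box C/D particles, which methylate the sugars of ribosomal RNA, have Fbl (fibrillarin, the methyltransferase), Nop56 and Nop58 as core proteins. In both lymphomas 3 of 3 rose, where 26.4% of all tested genes rose in pBIC and 24.8% in pBIC10. Nop58 was measured at 505, 524 and 619 CPM in pBIC10, 313, 445 and 371 CPM in pBIC and 147, 192, 249.7 and 225 CPM in YC. Its pBIC10 libraries were all above its pBIC libraries, which were all above YC. The log2 fold change against YC was 0.89 ± 0.19 in pBIC (adjusted p = 0.00178) and 1.43 ± 0.19 in pBIC10 (adjusted p = 5.75e-05). Fbl was measured at 247, 267 and 184 CPM in pBIC10, 158, 281 and 224 CPM in pBIC and 88.5, 112, 139.8 and 137 CPM in YC, and every lymphoma library was above every YC library. Its log2 fold change was 0.89 ± 0.22 in pBIC (adjusted p = 0.00435) and 0.96 ± 0.22 in pBIC10 (adjusted p = 0.00269). Nop56 had the smallest changes of the 3, 0.78 in pBIC and 0.55 in pBIC10. The latter call (adjusted p = 0.0199) was lost without pBIC10 replicate 3, without YC replicate 1 or without YC replicate 4, with adjusted p up to 0.0729.

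The box H/ACA particles turn chosen uridines of ribosomal RNA into pseudouridine. Their core proteins Dkc1 (dyskerin, the pseudouridine synthase), Gar1 and Nhp2 also rose in both lymphomas, 3 of 3 in each. The share of all tested genes that rose was 26.4% in pBIC and 24.8% in pBIC10. Dkc1 was measured at 350.1, 351 and 376 CPM in pBIC10, 242, 283 and 256 CPM in pBIC and 112, 118, 149.8 and 128 CPM in YC. The 3 groups did not overlap. Dkc1 rose by a log2 fold change of 1.03 ± 0.14 in pBIC (adjusted p = 8.05e-05) and 1.5 ± 0.15 in pBIC10 (adjusted p = 4.95e-06). Gar1, the lowest of these 3 genes in CPM, was measured at 104, 124 and 117 CPM in pBIC10, 69.9, 127 and 99.6 CPM in pBIC and 43.0, 55.4, 72.0 and 60.2 CPM in YC, and pBIC replicate 1 lay within the range of YC. Its log2 fold change was 0.78 in pBIC (adjusted p = 0.00778) and 1.0 in pBIC10 (adjusted p = 0.00167). Nhp2 had a log2 fold change of 1.23 in pBIC and 0.71 in pBIC10 (adjusted p = 0.0166, and 0.0615 without pBIC10 replicate 3). Nop10, the remaining core protein of these particles, was among the further assembly genes and rose too, by 1.47 in pBIC and 1.03 in pBIC10.

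Npm1 (nucleophosmin, a histone and ribosome chaperone), Ncl (nucleolin, an RNA-binding protein of the nucleolus) and Nolc1 (a chaperone of small nucleolar ribonucleoproteins) rose at least 2-fold in both lymphomas. A called rise of that size was found in 14.2% of all tested genes in pBIC and 14.8% in pBIC10. Npm1 was measured at 909, 801 and 1030.5 CPM in pBIC10, 1411, 2183 and 1363 CPM in pBIC and 374, 400.5, 475 and 461 CPM in YC. The pBIC libraries were the highest, the pBIC10 libraries lay between, and the YC libraries were the lowest, with no overlap. Npm1 rose 3.87-fold in pBIC (log2 fold change 1.95 ± 0.19, adjusted p = 5.09e-06) and 2.14-fold in pBIC10 (1.10 ± 0.18, adjusted p = 0.000299). Npm1 has processed copies elsewhere in the genome, and how reads shared with them were counted is not given in the sources used here, so its level is uncertain to that degree. Ncl was measured at 2697, 2759 and 3211 CPM in pBIC10, 2539, 3069 and 2444 CPM in pBIC and 921, 991, 1243 and 1170.3 CPM in YC, and both lymphomas lay well above YC and overlapped each other. The log2 fold change of Ncl was 1.31 ± 0.15 in pBIC (adjusted p = 2.25e-05) and 1.42 ± 0.15 in pBIC10 (adjusted p = 1.20e-05). Nolc1 was measured at 478, 451 and 561 CPM in pBIC10, 451, 550.5 and 512 CPM in pBIC and 183, 233, 311 and 241 CPM in YC. All lymphoma libraries were above all YC libraries, and the changes were 1.06 in pBIC (adjusted p = 0.000317) and 1.04 in pBIC10 (adjusted p = 0.000361).

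Polr1a and Polr1b encode the largest subunits of RNA polymerase I, Polr1c a subunit shared with RNA polymerase III, and Ddx21 a nucleolar helicase. All 4 rose in pBIC, and 3 rose in pBIC10, against 26.4% and 24.8% of all tested genes. Polr1b was measured at 147, 126 and 153 CPM in pBIC10, 116, 110.3 and 118 CPM in pBIC and 51.5, 68.0, 76.7 and 60.3 CPM in YC, and every lymphoma library was above every YC library. It rose by 0.84 ± 0.16 in pBIC (adjusted p = 0.000727) and by 1.15 ± 0.16 in pBIC10 (adjusted p = 7.25e-05). Ddx21 was measured at 657, 583 and 548 CPM in pBIC10, 683, 677 and 615 CPM in pBIC and 223, 261, 336 and 306 CPM in YC, and again the lymphoma libraries were all above YC. Its changes were 1.23 ± 0.16 in pBIC (adjusted p = 4.93e-05) and 1.08 ± 0.16 in pBIC10 (adjusted p = 0.000122). Polr1c differed from the others of its role. It was measured at 52.1, 51.5 and 63.5 CPM in pBIC10, 76.6, 121 and 76.1 CPM in pBIC and 44.7, 39.3, 54.5 and 52.0 CPM in YC, so its pBIC10 libraries overlapped YC and its pBIC libraries lay above both. Polr1c rose in pBIC (0.94 ± 0.20, adjusted p = 0.00141) and was not called in pBIC10 (0.23 ± 0.20, adjusted p = 0.356).

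Small subunit assembly was covered by 9 genes. Of these, 7 rose in pBIC and 5 in pBIC10, against 26.4% and 24.8% of all tested genes. Utp4, Wdr43 and Wdr75 belong to the part of the small subunit processome that binds the nascent ribosomal RNA first. Utp4 was measured at 242, 217 and 243 CPM in pBIC10, 165, 215 and 247 CPM in pBIC and 62.7, 70.1, 79.6 and 73.7 CPM in YC. Its lymphoma libraries were all above YC, and pBIC and pBIC10 overlapped. Utp4 rose 2.92-fold in pBIC (1.55 ± 0.16, adjusted p = 1.03e-05) and 3.27-fold in pBIC10 (1.71 ± 0.16, adjusted p = 4.56e-06), the largest changes among the small subunit genes. Wdr43 was measured at 449.9, 418 and 390.1 CPM in pBIC10, 305, 357 and 324 CPM in pBIC and 132, 172, 221 and 180.4 CPM in YC and Wdr75 at 157, 151 and 186 CPM in pBIC10, 106, 142 and 110.3 CPM in pBIC and 50.3, 66.3, 72.2 and 63.0 CPM in YC. In both genes the pBIC10 libraries were all above pBIC and the pBIC libraries all above YC. The change against YC was 0.90 in pBIC and 1.25 in pBIC10 for Wdr43, and 0.93 and 1.39 for Wdr75. Utp20 and Noc4l, further processome proteins, rose by 0.70 and 0.72 in pBIC and by 1.04 and 0.67 in pBIC10.

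Of the other small subunit genes, Rrp9 and Bysl were called in pBIC alone, and Rrp12 and Ltv1 in neither lymphoma. Whether the changes of Rrp9 and Bysl differ between the lymphomas is given by pBIC10 against pBIC, where neither was called. Rrp9, a protein of the small nucleolar ribonucleoprotein that guides early cutting, rose in pBIC (0.61, adjusted p = 0.0117) and was not called in pBIC10 (0.23, adjusted p = 0.303). Bysl, which joins late small subunit precursors, was measured at 52.8, 60.7 and 67.2 CPM in pBIC10, 65.0, 83.9 and 86.7 CPM in pBIC and 51.8, 56.9, 57.9 and 54.7 CPM in YC. Its pBIC libraries were above YC, and its pBIC10 libraries overlapped YC. Bysl rose in pBIC by 0.51 ± 0.15 (adjusted p = 0.0144) and was not called in pBIC10 (0.12 ± 0.16, adjusted p = 0.535). By the earlier annotation GRCm38, 9.37% of its exon bases also belong to Ccnd3 on the opposite strand, and the strand setting of the counting is not given in the sources used here, so the Bysl values are uncertain. Rrp12, an export factor, was measured at 81.3, 72.4 and 65.0 CPM in pBIC10, 86.4, 85.7 and 70.1 CPM in pBIC and 55.5, 77.3, 93.0 and 81.6 CPM in YC, with all 3 groups overlapping, and Ltv1, another late factor, had changes of 0.38 and 0.31. Neither was called in either lymphoma, but without YC replicate 3 Ltv1 was called higher in both, with adjusted p = 0.0215 in pBIC and 0.0418 in pBIC10.

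Large subunit assembly was the role with most members, 14. All 14 rose in pBIC and 11 in pBIC10, against 26.4% and 24.8% of all tested genes. Pes1, Bop1 and Wdr12 encode the PeBoW complex, which acts on large subunit precursors, and its members differed in size of change. Wdr12 was measured at 109.6, 115 and 144 CPM in pBIC10, 106, 118 and 105 CPM in pBIC and 22.9, 24.8, 27.8 and 25.7 CPM in YC. The YC libraries were tightly grouped, and every lymphoma library was far above them. Wdr12 rose 4.32-fold in pBIC (2.11 ± 0.15, adjusted p = 6.86e-07) and 4.86-fold in pBIC10 (2.28 ± 0.15, adjusted p = 4.20e-07), the largest changes of the 37 genes in both comparisons. Pes1 changed by 0.43 in pBIC (adjusted p = 0.0271) and 0.57 in pBIC10 (adjusted p = 0.0058). Bop1 changed by 0.42 in pBIC (adjusted p = 0.0434) and by 0.08 in pBIC10, where it was not called (adjusted p = 0.698). Both pBIC calls were fragile. The Pes1 call was lost in 4 of the 10 fits that left out a library (pBIC replicate 3 and YC replicates 1, 2 and 4; adjusted p up to 0.0941), and the Bop1 call in 8 of them (all but those without pBIC replicate 1 or 3; adjusted p up to 0.132).

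Among the other large subunit genes, Noc2l and Noc3l are partners in early and middle precursors, and Noc2l is also known as an inhibitor of histone acetyltransferases that binds p53. Noc2l was measured at 659, 662 and 644 CPM in pBIC10, 279.8, 265 and 285 CPM in pBIC and 165, 208, 251 and 215 CPM in YC. The pBIC10 libraries agreed closely and were far above both other groups. Noc2l rose 3.12-fold in pBIC10 against YC (1.64 ± 0.15, adjusted p = 3.80e-06) and 1.32-fold in pBIC (0.40 ± 0.15, adjusted p = 0.0399). The pBIC call was lost without pBIC10 replicate 1 or 2, pBIC replicate 1 or 3, or YC replicate 1, 2 or 4 (adjusted p up to 0.135), and by DESeq2. Noc3l, the least abundant member of its role in CPM in pBIC10, was measured at 50.8, 42.5 and 62.5 CPM in pBIC10, 68.3, 76.5 and 56.9 CPM in pBIC and 34.7, 40.2, 41.7 and 40.3 CPM in YC. It rose in pBIC (0.78 ± 0.17, adjusted p = 0.00209) and was not called in pBIC10 (0.41 ± 0.17, adjusted p = 0.0641), though it was without pBIC10 replicate 2, pBIC replicate 2 or pBIC replicate 3 (adjusted p down to 0.0361). By the same earlier annotation Samd11 lies opposite 20.9% of the Noc2l exon bases, and Samd11 had 218 counts over all libraries against 61616 for Noc2l.

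The remaining large subunit genes rose in pBIC by log2 fold changes from 0.44 (Rrs1) to 1.44 (Nop16) and in pBIC10, where Nop2 was not called (0.37, adjusted p = 0.14), by 0.80 (Mrto4) to 1.82 (Rrp1b). Gnl3 (nucleostemin, a nucleolar GTPase) rose by 1.05 and 1.53, and Ebna1bp2 by 1.12 and 1.5. The helicase Ddx18 rose by 0.50 and 0.87, and Nip7 by 0.79 and 0.81. Of the pBIC calls, that of Ddx18 was lost without pBIC replicate 2 or YC replicate 1, 2 or 4 (adjusted p up to 0.0952), that of Mrto4 without YC replicate 2 (0.0510), and that of Rrs1 without pBIC10 replicate 2, pBIC replicate 2 or 3, or YC replicate 1, 2 or 4 (up to 0.137).

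**Figure D2:**
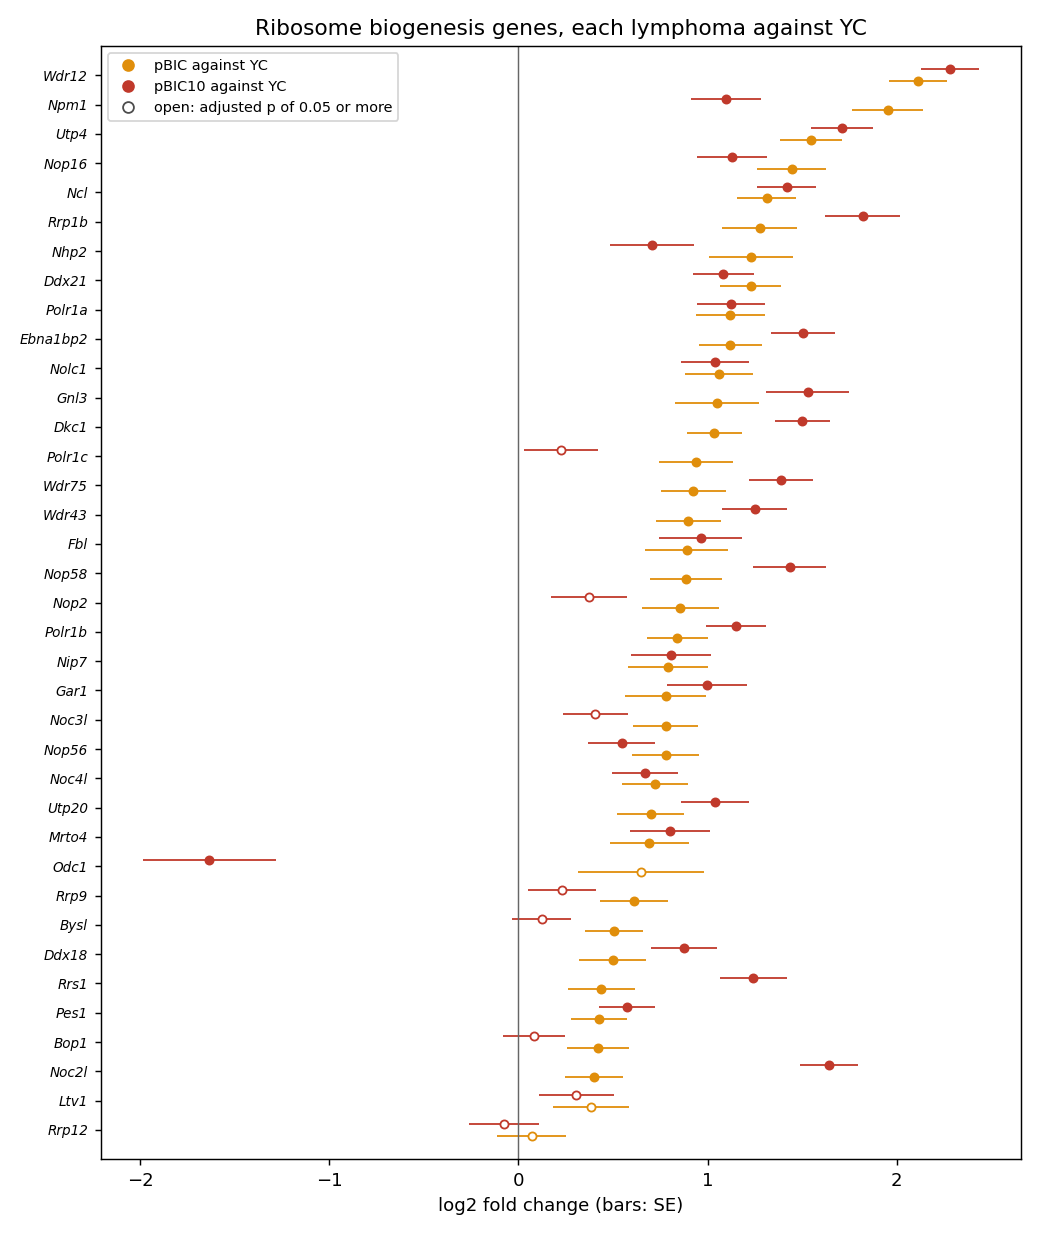
Log2 fold change of each of the 37 genes in each lymphoma against YC, with SE bars, ordered by the pBIC value; filled points were called and open points were not. Wdr12 is highest in both comparisons, 34 points of pBIC and 28 of pBIC10 are filled to the right of 0, and Odc1 in pBIC10 is the only filled point to the left.

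Odc1 (ornithine decarboxylase) was the member that departed from the others. It was measured at 98.0, 78.9 and 97.3 CPM in pBIC10, 210.5, 403 and 719.9 CPM in pBIC and 191, 278, 345 and 320.0 CPM in YC. The pBIC10 libraries were all below the other 7, the pBIC libraries spread over a range of 3.42-fold, and pBIC and YC overlapped. Odc1 fell in pBIC10, 3.10-fold lower than in YC (-1.63 ± 0.35, adjusted p = 0.00229) and 4.86-fold lower than in pBIC (-2.28 ± 0.38, adjusted p = 0.000849). Both calls were made in each of the other 21 settings tried. In pBIC against YC the change was 0.65 ± 0.33 and was not called (adjusted p = 0.119). It depended on single pBIC libraries, with 0.98 (adjusted p = 0.00771) without replicate 1 and 0.11 (adjusted p = 0.750) without replicate 3.

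Odc1 makes putrescine, which spermidine synthase (Srm) and spermine synthase (Sms) lengthen. Of 15 other polyamine genes tested, from a list of 17, 6 rose and 3 fell in pBIC against YC, against 26.4% and 27.7% of all tested genes. When pBIC10 was set against YC, 7 rose and 1 fell, against 24.8% and 26.9% of all tested genes. In pBIC10 against pBIC, 4 rose and 1 fell, against 15.6% and 15.1%. Srm was measured at 409, 469 and 486 CPM in pBIC10, 255, 491 and 307 CPM in pBIC and 106, 132, 145 and 141 CPM in YC, and rose in pBIC (1.42 ± 0.21, adjusted p = 0.000115) and in pBIC10 (1.79 ± 0.21, adjusted p = 2.03e-05). The lymphoma libraries of Srm were all above YC, unlike those of Odc1. Sms rose in pBIC (1.13) and in pBIC10 (0.57, adjusted p = 0.0114, and 0.0523 without pBIC10 replicate 1). Azin1, which encodes the antizyme inhibitor that protects ornithine decarboxylase from breakdown, was measured at 244, 219 and 238 CPM in pBIC10, 122, 135 and 68.1 CPM in pBIC and 228, 176, 266 and 225 CPM in YC. It fell in pBIC against YC (-1.04 ± 0.22, adjusted p = 0.00167). Azin1 was higher in pBIC10 than in pBIC (1.11 ± 0.23, adjusted p = 0.0033), where Odc1 was lower. It was not called in pBIC10 against YC (0.06). Sat1, which acetylates polyamines for export and breakdown, fell in both lymphomas (-1.68 in pBIC, adjusted p = 8.77e-06; -1.33 in pBIC10, adjusted p = 4.07e-05). Amd2 rose by 1.43 and 1.14, but it is nearly identical to Amd1 and its counts are uncertain.

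The second question was how pBIC10 differs from pBIC. Few of the ribosome biogenesis genes were called between the lymphomas, and those few went both ways. The median log2 fold change of the 37 was 0.07, against -0.01 over all tested genes, and 21 of 37 estimates were above 0. In pBIC10, 3 genes rose (Noc2l, Rrs1 and Dkc1) and 3 fell (Odc1, Npm1 and Polr1c), where 15.6% of all tested genes rose and 15.1% fell. The pBIC10 libraries were all above pBIC for 11 genes and all below for 5, against 22.1% and 19.7% of all tested genes. The 31 genes that were not called are not shown to be equal. Their estimates ran from -0.52 (Nhp2) to 0.55 (Nop58), with SE of 0.16 to 0.24.

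Noc2l had the largest rise of the 37 in pBIC10 against pBIC. It stood at 659, 662 and 644 CPM in pBIC10 and 279.8, 265 and 285 CPM in pBIC, a 2.37-fold difference (log2 fold change 1.24 ± 0.17, adjusted p = 0.000126). Rrs1, which helps to bring a small ribosomal RNA into the large subunit and is named here because it was called, was measured at 114, 132 and 169 CPM in pBIC10, 69.3, 93.0 and 75.8 CPM in pBIC and 59.9, 54.1, 67.6 and 52.6 CPM in YC. All its pBIC10 libraries lay above pBIC, and it rose by 0.80 ± 0.19 (adjusted p = 0.00619). Dkc1 rose by 0.47 ± 0.16 (adjusted p = 0.037). The Dkc1 call was lost without any 1 of the 3 pBIC10 libraries, pBIC replicate 1, pBIC replicate 3 or YC replicate 4 (adjusted p up to 0.0833), and with sex as a covariate.

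Npm1 fell in pBIC10 against pBIC (log2 fold change -0.85 ± 0.20, adjusted p = 0.00585), from 1411, 2183 and 1363 CPM to 909, 801 and 1030.5 CPM. It thus stood 1.81-fold lower than in pBIC while 2.14-fold higher than in YC. Polr1c fell too (-0.71 ± 0.21, adjusted p = 0.0214). That call was lost without pBIC10 replicate 1 or 2 or without pBIC replicate 2, with adjusted p up to 0.0855. The calls of Npm1, Noc2l, Rrs1 and Odc1 were made in each of the other 21 settings tried. Several genes sat near the threshold and were called in single fits that left out a library. Without pBIC replicate 1, Nhp2 (adjusted p = 0.00629), Bysl (0.0283) and Nop16 (0.0272) were called lower in pBIC10. Without pBIC replicate 2, Nop58, Wdr75 (0.0387) and Ddx18 (0.0408) were called higher, and without YC replicate 1, Nop58 (0.0334), Rrp1b (0.0183) and Gnl3 (0.0495) were. Nop2 was called lower without pBIC10 replicate 3 (0.0203).

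**Figure D3:**
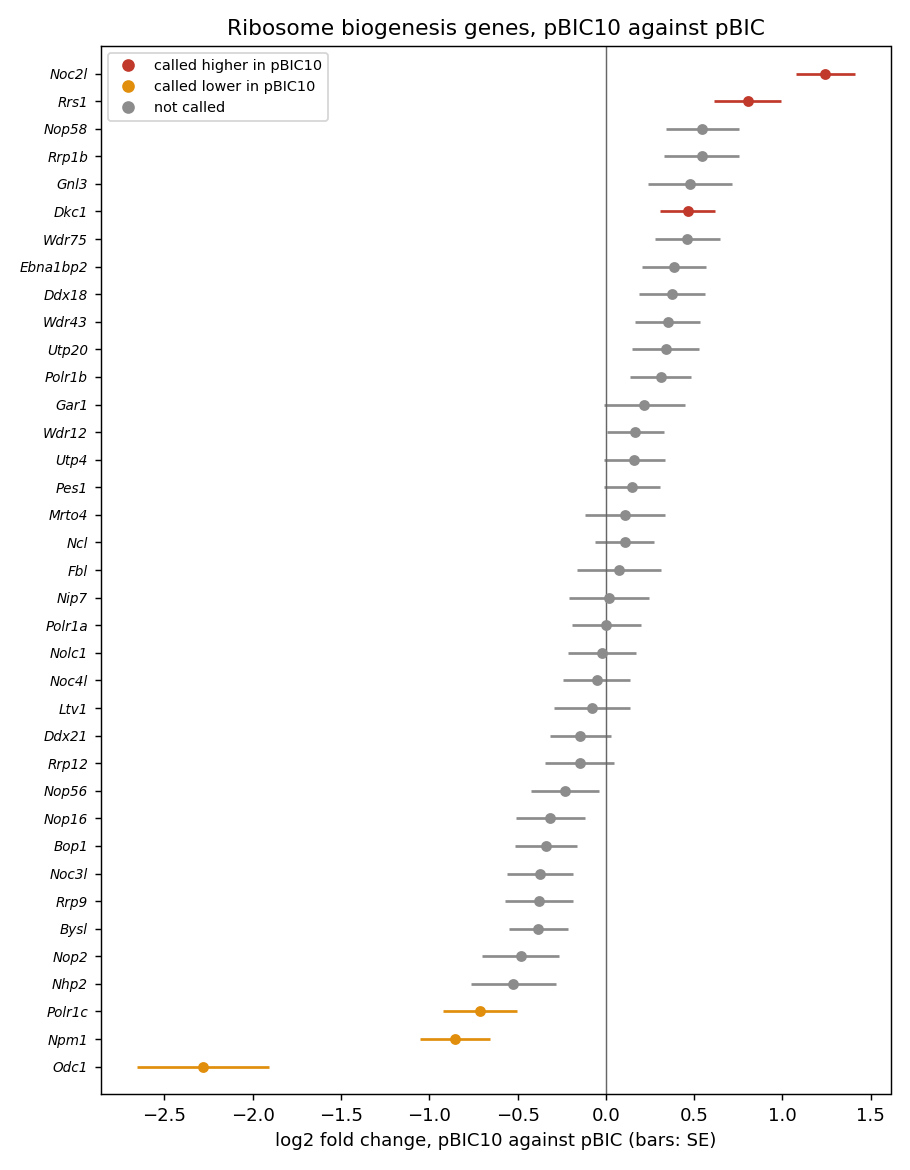
Log2 fold change of each of the 37 genes in pBIC10 against pBIC, with SE bars, ordered by value; colours mark the 3 genes called higher and the 3 called lower. Most points lie near 0, with Noc2l at 1.24 and Odc1 at -2.28 at the ends.

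**Figure D4:**
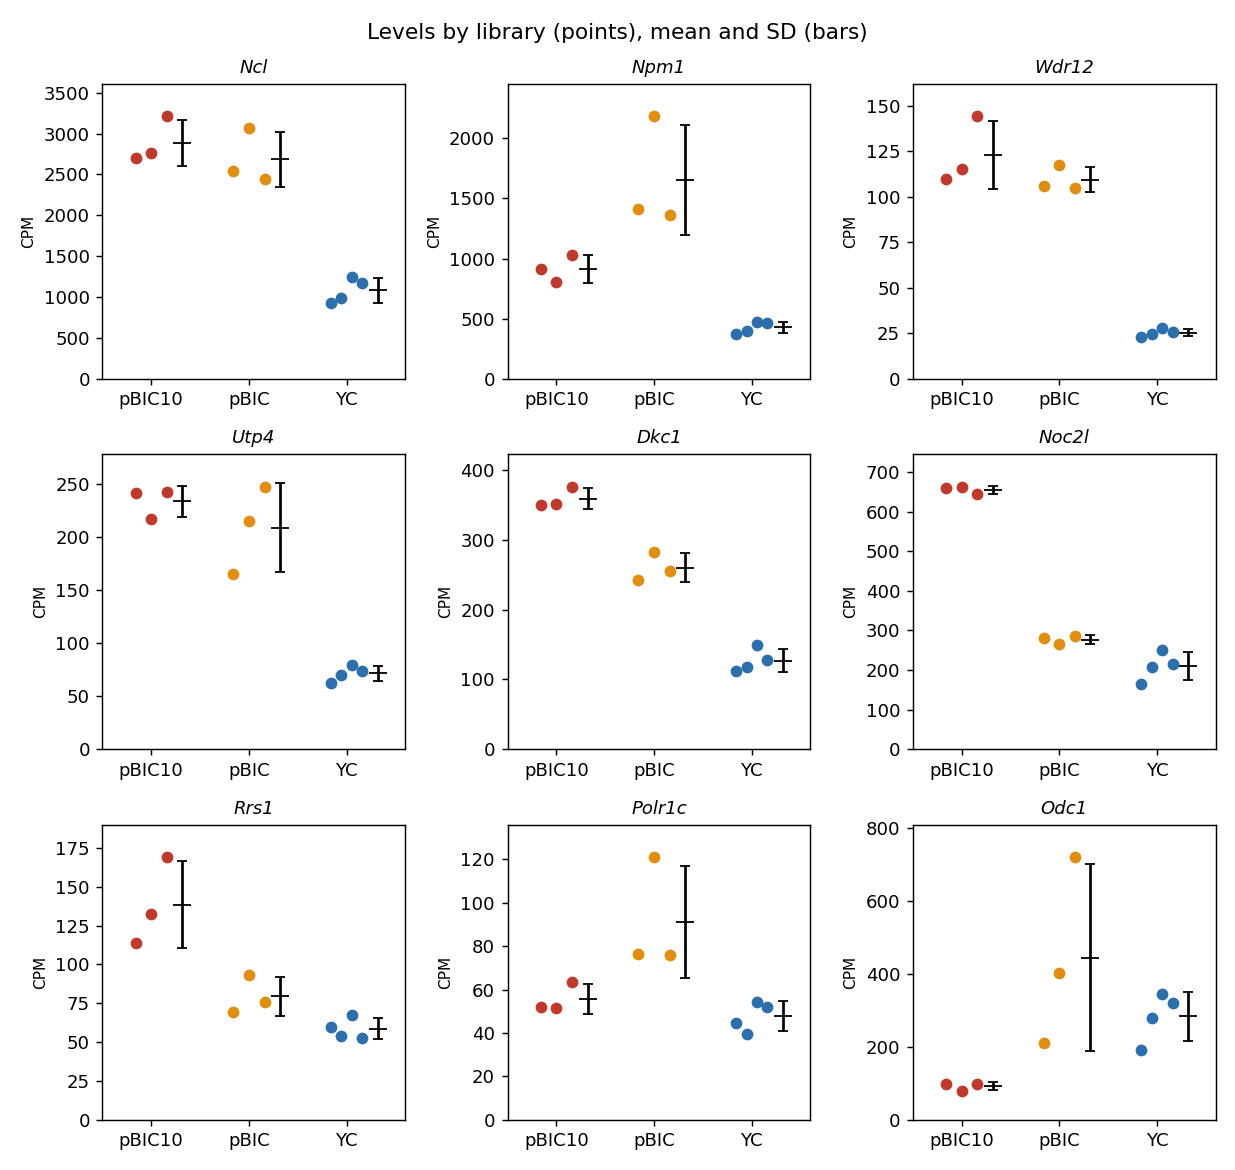
CPM of 9 of the genes in each library (points), with the mean and SD of each group beside them (3 libraries of pBIC10, 3 of pBIC, 4 of YC). Ncl, Wdr12 and Utp4 are high in both lymphomas, Npm1 and Polr1c are highest in pBIC, Dkc1, Noc2l and Rrs1 are highest in pBIC10, and Odc1 is lowest in pBIC10.

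Levels were compared between genes per kilobase of exon, with lengths from the GRCm38 annotation matched by symbol for all 37 genes. Npm1 was the highest of the 37 in each group, at 343 ± 43.0 CPM per kilobase in pBIC10 (SD, n = 3), 620.0 ± 173 in pBIC (SD, n = 3) and 160.4 ± 18.1 in YC (SD, n = 4). Ncl was the second in each group, and Wdr12 the lowest of the 37 in each group, at 10.3 ± 1.55, 9.16 ± 0.584 and 2.12 ± 0.17 CPM per kilobase in pBIC10, pBIC and YC. Wdr12 thus had both the largest rise against YC and the lowest level per kilobase of the 37. Its length of 11955 bases, taken over all annotated exons, was the longest of the 37, and the rank depends on it. In CPM its mean was 123 in pBIC10 and 109 in pBIC, above the 52.0 and 67.2 of Noc3l. Noc2l ranked 3 in pBIC10, 7 in pBIC and 5 in YC, and Odc1 ranked 28 in pBIC10, 4 in pBIC and 3 in YC. These ranks are of means, and in pBIC the SD of Odc1 (75.5 around a mean of 130.5 CPM per kilobase) spans the means of Nhp2 (195) and Ddx21 (127), its nearest neighbours in rank.

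The other genes of the pathway, from lists of assembly factors that are not members, also rose far more often than they fell against YC. Of 139 tested, 87 rose and 4 fell in pBIC against YC (median 0.65), where 26.4% of all tested genes rose and 27.7% fell. In pBIC10 against YC, 81 rose and 4 fell (median 0.57), against 24.8% and 26.9% of all tested genes. In pBIC10 against pBIC, 15 rose and 15 fell (median -0.05), against 15.6% and 15.1% of all tested genes. By step, 32 of 46 small subunit factors rose and 0 fell in pBIC, and 30 rose and 2 fell in pBIC10. Of 53 genes listed as large subunit factors, 34 rose and 1 fell in pBIC, and 31 rose and 1 fell in pBIC10. This list also holds genes of small nucleolar ribonucleoproteins, such as Nop10. Dcaf13, a small subunit factor, rose by 1.08 and 1.91 (adjusted p = 0.000106 and 1.64e-06). Nifk, a large subunit factor that binds the proliferation antigen Ki-67, rose by 1.39 and 1.86, and Brix1 by 0.94 and 1.66. The kinase Riok2 rose by 1.28 and 1.27. Utp3 and Rrp36 fell in pBIC10, with -0.57 (adjusted p = 0.0171) and -0.61 (adjusted p = 0.0234). The Utp3 call was lost without pBIC10 replicate 1 or 2 (adjusted p up to 0.0839), and the Rrp36 call without pBIC10 replicate 1 or 3 or YC replicate 2.

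Of 18 further RNA polymerase I subunits and initiation factors, 7 rose and 2 fell in pBIC, and 7 rose and 1 fell in pBIC10. In pBIC10 against pBIC, 1 rose and 5 fell, with a median of -0.28. Over all tested genes, 26.4% rose and 27.7% fell in pBIC, and 24.8% rose and 26.9% fell in pBIC10, each against YC. Between the lymphomas, 15.6% of all tested genes rose and 15.1% fell. Rrn3, the factor that brings RNA polymerase I to its promoter, was measured at 76.3, 63.1 and 77.6 CPM in pBIC10, 113, 108 and 130.3 CPM in pBIC and 61.4, 60.4, 61.3 and 57.0 CPM in YC. It rose in pBIC against YC (0.96 ± 0.14, adjusted p = 0.000119) and fell in pBIC10 against pBIC (-0.69 ± 0.15, adjusted p = 0.00422) and was not called in pBIC10 against YC (0.27, adjusted p = 0.131). The member Polr1c was called in the same 2 comparisons and directions. The subunit gene Znrd1 fell in pBIC10 against YC (-1.46, adjusted p = 0.000754). Among RNase MRP and exosome genes, which cut and trim the precursor RNA, 14 of 22 rose and 1 fell in pBIC, and 13 rose and 0 fell in pBIC10. Pop1 had the largest rise of these genes in pBIC10 against YC (2.52), and Rpp40 in pBIC against YC (1.76). Pop1 was measured at 217, 208 and 262 CPM in pBIC10, 59.2, 65.0 and 62.7 CPM in pBIC and 32.4, 39.3, 45.7 and 41.5 CPM in YC, and was higher in pBIC10 than in pBIC by 1.88 ± 0.17 (adjusted p = 7.20e-06). Its pBIC10 libraries were all far above the other 7. Rsl1d1, Nol10 and Nsa2 were called lower in pBIC10 than in pBIC, with -1.38, -1.10 and -0.72.

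Myc, whose product binds the promoters of many of these genes, was measured at 1615, 1319.7 and 3204 CPM in pBIC10, 683, 688 and 855 CPM in pBIC and 224, 456, 259 and 299 CPM in YC. The 3 groups did not overlap, and pBIC10 replicate 3 was the highest. Myc rose in pBIC against YC (1.26 ± 0.30, adjusted p = 0.00394), in pBIC10 against YC (2.72 ± 0.31, adjusted p = 2.53e-05) and in pBIC10 against pBIC (1.46 ± 0.33, adjusted p = 0.00552). In that last comparison the median of the 37 members was 0.07. The MYC network, which includes its antagonists, had 11 genes tested. In pBIC against YC, 3 of the 11 rose and 3 fell, where 26.4% of all tested genes rose and 27.7% fell. In pBIC10 against YC, 5 rose and 3 fell, against 24.8% and 26.9% of all tested genes. Mxd3 fell in both (-3.23 and -2.81), and Mxi1 rose in both (2.43 and 3.32). Between the lymphomas, 4 of the 11 rose and 1 fell in pBIC10, against 15.6% and 15.1% of all tested genes. The part of Myc in the members' levels was not tested.

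Of 22 genes of cell division, 1 rose and 4 fell in pBIC against YC, where 26.4% of all tested genes rose and 27.7% fell. In pBIC10 against YC, 2 rose and 11 fell, against 24.8% and 26.9% of all tested genes. Their summed level was 3665 to 5692 CPM in YC, 2598 to 4219 CPM in pBIC and 3553 to 4694 CPM in pBIC10, and the ranges overlapped. Mki67, a marker of cycling cells, fell in pBIC (-1.18 ± 0.30, adjusted p = 0.00516) and in pBIC10 (-1.13 ± 0.30, adjusted p = 0.00687). The mitotic kinase Plk1 fell in pBIC10 against YC (-2.28, adjusted p = 8.64e-06). Those that rose included Ccne1 (cyclin E1) in pBIC (0.86, adjusted p = 0.00222) and Mcm6, a subunit of the replicative helicase, in pBIC10 (0.95, adjusted p = 0.00227). Between the lymphomas, 3 of the 22 rose and 6 fell in pBIC10, against 15.6% and 15.1% of all tested genes. Plk1 fell there (-2.11), and Mcm6 rose (0.99).

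**Figure D5:**
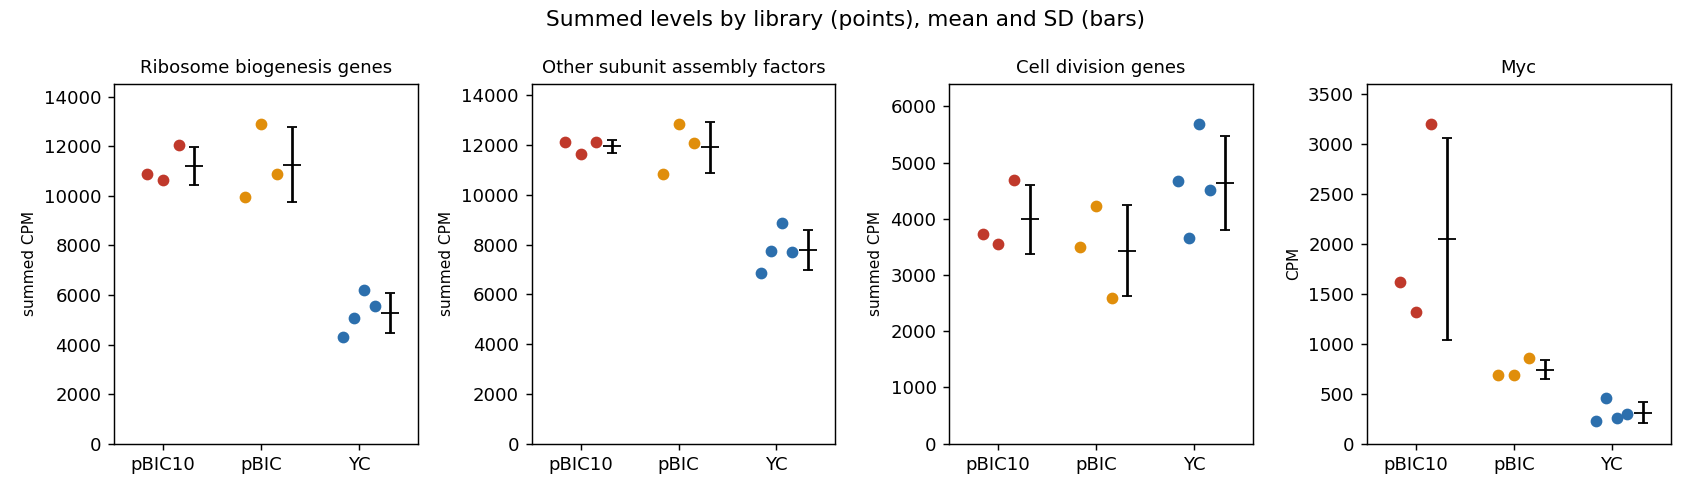
Summed CPM of the 37 genes, of other small and large subunit assembly factors and of cell division genes, and CPM of Myc, in each library (points) with the mean and SD of each group. The large subunit list includes Nop10, a box H/ACA protein. The assembly genes and Myc are higher in both lymphomas than in YC, while the cell division genes overlap between the groups at 2598 to 5692 CPM.

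Within a group, the same library was often the highest for many of the 37 genes. In YC, replicate 1 was the lowest library for 33 of 37 genes and replicate 3, the male, the highest for 35. Their summed member levels were 4292 and 6195 CPM. For these 2 libraries the 10 T cell markers ran the other way. Their sum was 681 CPM in YC replicate 1, the highest of the group, and 430 CPM in YC replicate 3, the lowest. Replicate 3 also had the lowest plasma cell marker sum of YC, 1218 CPM against 2328 to 2731 CPM. Its cell division sum, 5692 CPM, was the highest of YC. Replicate 1 had the highest sums of YC for germinal centre, NK cell and myeloid markers, at 1150, 63.3 and 216 CPM. The part of these genes in the members' levels was not tested. In pBIC, replicate 2 was the highest for 26 genes and replicate 1 the lowest for 24. In pBIC10, replicate 3, the male, was the highest for 24. The median coefficient of variation over the 37 genes was 11.3% in pBIC10, 17.6% in pBIC and 14.8% in YC, from 1.46% (Noc2l in pBIC10) to 57.9% (Odc1 in pBIC).

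Markers of other cell types differed between the groups too. Summed T cell markers were 430 to 681 CPM in YC, 78.0 to 122 CPM in pBIC and 143 to 232 CPM in pBIC10, and 9 of 10 were called lower in each lymphoma than in YC. Cd2 and Lck carried the higher sum in pBIC10 than in pBIC (log2 fold changes 2.08 and 1.61), and the other 8 were called lower in pBIC10 than in pBIC. Plasma cell markers were summed to 1218 to 2731 CPM in YC, 339 to 566 CPM in pBIC and 228 to 258 CPM in pBIC10, with 6 of 6 lower in pBIC and 5 of 6 in pBIC10. NK cell markers were summed to 23.8 to 63.3 CPM in YC, 4.28 to 10.9 CPM in pBIC and 1.11 to 2.48 CPM in pBIC10, with 5 of 6 called lower in pBIC and 6 of 6 in pBIC10, and the NK cell receptor gene Ncr1 was at 0 in 3 lymphoma libraries. Myeloid markers were summed to 140 to 216 CPM in YC, 126 to 166 CPM in pBIC and 27.7 to 37.5 CPM in pBIC10, with 5 of 9 called lower and 1 higher in pBIC and 8 lower in pBIC10. Erythroid markers overlapped between pBIC and YC (35.3 to 667 and 187 to 559 CPM) and were 639 to 1637 CPM in pBIC10, where 3 of 7 were called higher than in YC. Their part in the members' levels was not tested.

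Because most members moved together, their promoters were read for the E-box CACGTG, the sequence MYC binds. RefSeq (GRCm38.p6) gave promoters, from 250 bases before to 50 after the start of transcription, for 32 of the 37 genes, and none for Fbl, Npm1, Rrp12, Bop1 and Rrs1. CACGTG, which reads the same on both strands, was in 6 of the 32 (18.75%) and in 8.09% of all 27025 genes with a promoter. The 6 were Nop2, Utp4, Ltv1, Utp20, Pes1 and Wdr43, and their E-boxes are shown with the E-box in capitals, 5′ to 3′ on the strand of the gene, since these are the members that hold it.

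Nop2, chr6:125131811-125131840, + strand: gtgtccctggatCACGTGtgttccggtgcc
Utp4, chr8:106893643-106893672, + strand: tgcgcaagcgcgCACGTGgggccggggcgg
Ltv1, chr10:13193092-13193121, - strand: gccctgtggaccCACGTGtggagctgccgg
Utp20, chr10:88826765-88826789, - strand: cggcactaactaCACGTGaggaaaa
Pes1, chr11:3963965-3963994, + strand: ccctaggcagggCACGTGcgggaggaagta
Wdr43, chr17:71616220-71616249, + strand: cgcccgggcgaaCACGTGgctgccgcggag

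The E-box begins at base -60 for Nop2 and at bases 16, 29, 38, 3 and 18 for Utp4, Ltv1, Utp20, Pes1 and Wdr43, counting the start of transcription as base 1. The 6 genes ranged widely. Utp4 changed by 1.55 in pBIC and 1.71 in pBIC10 against YC, and Wdr43 by 0.90 and 1.25, whereas Ltv1 changed by 0.38 and 0.31 and was not called. Wdr12, Noc2l and Ncl are not among the 6. Bases outside the window, introns among them, were not read, so a gene without a match may hold the motif elsewhere. A second motif, GGAAGT on either strand (ACTTCC on the other), looked for after the values had been seen, was in 16 of the 32 (50%) and in 26.5% of all genes. The 2 motifs can share at most 1 end base.

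The 250 bases before the start are shown for 3 genes with different patterns, with both motifs in capitals. Utp4 was high in both lymphomas, Noc2l was highest in pBIC10, and Odc1 was lowest in pBIC10. For Noc2l, RefSeq lists 2 starts 5 bases apart, and the first listed is shown.

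Noc2l, chr4:156235765-156236014, + strand: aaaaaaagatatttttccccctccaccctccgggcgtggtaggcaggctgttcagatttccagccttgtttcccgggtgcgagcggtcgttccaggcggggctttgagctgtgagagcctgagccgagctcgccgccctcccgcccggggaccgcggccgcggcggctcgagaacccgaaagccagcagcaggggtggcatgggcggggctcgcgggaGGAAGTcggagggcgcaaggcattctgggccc
Odc1, chr12:17544623-17544872, + strand: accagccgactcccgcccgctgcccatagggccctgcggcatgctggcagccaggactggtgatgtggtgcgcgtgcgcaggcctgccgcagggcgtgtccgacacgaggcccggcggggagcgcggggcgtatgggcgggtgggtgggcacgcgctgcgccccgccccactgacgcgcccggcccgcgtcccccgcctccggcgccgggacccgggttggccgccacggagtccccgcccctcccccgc
Utp4, chr8:106893390-106893639, + strand: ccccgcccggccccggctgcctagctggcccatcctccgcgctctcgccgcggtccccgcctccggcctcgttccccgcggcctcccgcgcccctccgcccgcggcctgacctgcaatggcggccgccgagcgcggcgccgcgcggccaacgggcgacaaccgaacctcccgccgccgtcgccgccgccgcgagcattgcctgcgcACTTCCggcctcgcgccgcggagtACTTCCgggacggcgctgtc

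In these bases, Utp4 holds ACTTCC 2 times, Noc2l holds GGAAGT 1 time, and Odc1 holds 0 copies of either motif. Wdr12, which had the largest rises against YC, has more than 1 listed start and is not shown. The 250 bases before its starts hold 0 copies of CACGTG and, by start, 0, 0 and 1 of GGAAGT on either strand. Whether these motifs go with the changes was not tested. Matches are of letters only and do not show binding. The G and C content of these stretches was 80.4% for Utp4, 67.6% for Noc2l and 80.0% for Odc1.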

How the data were processed

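Poly(A) RNA of sorted cells was sequenced as single-end reads, per the labels' protocols. The authors deposited raw counts for each gene and library, made with featureCounts after FastQC on GRCm39, per the submitters' processing notes. The aligner, the annotation release, the strandedness and the versions were not given in the sources used here. Every column was matched to a sample, with 0 left over.

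Depth was 12590117 to 19134178 counts per library. Same-group libraries differed beyond sampling noise (chi-square per degree of freedom of 18.8 to 85.6). Genes were kept by filterByExpr, scaled by TMM and fitted in edgeR 4.0.16 (R 4.3.3; quasi-likelihood F test, robust, two-sided) over all 10 libraries with 1 coefficient per group, in 3 comparisons. Calls needed a Benjamini-Hochberg adjusted p below 0.05 over 17718 genes. Adjusted p-values come from edgeR throughout. Each SE is the absolute log2 fold change over the square root of F. The script was tested on simulated data with a smaller spread and fewer changed genes than these data have. That test therefore gives no error rates for these data.

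The members and gene lists were chosen with earlier results of these data known. Values by library are given for the members of each role with the smallest adjusted p in each comparison and with the highest and lowest mean CPM, for any member called in opposite directions against YC (0 were), for Odc1, and for Rrs1 and Rrp12, chosen after their values were seen. Of pathway lists, up to 2 called genes per direction and comparison with the smallest adjusted p qualified, plus Myc, and the text gives some of these, picked after their values were seen.

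The alternatives tried were RLE, upper-quartile and total-count scaling, DESeq2 1.42.0, limma-voom 3.58.1, no filter, a stricter filter, a fit of only the groups compared, a term for sex, the female mice only, exclusion of antigen receptor genes, a threshold of 0.01, and omission of each library in turn. Figures used matplotlib 3.10.9.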

Additional observations from a re-analysis of the deposited data

Results flagged for a closer look

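In a group of 4 libraries, a single library was marked where its gap to the nearest other, divided by the range of the group, passed Dixon's 95% critical value. Only YC has 4 libraries, and 4 of 86 genes looked at were marked. Chance marks about 1 in 20 groups. Polr1a was lowest in YC replicate 1 at 94.4 CPM, with the next library at 115 CPM. Nop10 was highest in YC replicate 3 at 80.3 CPM, with the next at 73.1 CPM. Exosc4 was highest in YC replicate 2 at 19.6 CPM, with the next at 17.4 CPM. Mxd1 was highest in YC replicate 4 at 27.7 CPM, with the next at 18.7 CPM.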

How the results depend on the processing

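Against YC, the counts of members called were recomputed in 22 alternatives and their medians in 21, since another threshold moves no median. In pBIC, 26 to 34 rose (34 reported) and 0 fell, with medians of 0.73 to 0.98, and in pBIC10, 26 to 29 rose (28 reported) and 1 fell, with medians of 0.91 to 1.14. In pBIC10 against pBIC the median ran from -0.06 to 0.13. There, 5 members were called higher with library totals alone, and leaving out each library in turn gave 2 to 6 called higher and 2 to 6 called lower. The count of 6 higher came without pBIC replicate 2 or without YC replicate 1, and that of 6 lower without pBIC replicate 1. The cause was not tested. Over 67 named genes, 4251 of 4422 values stayed on the same side of the threshold, 130 lost the call, 41 gained it and 0 called values reversed. Another sign was found in 36 values that were not called. Where leaving out a library left 2 in a group, the spread was pooled over the groups. No paired analysis was possible because the labels give no replicate numbers shared between groups. Depth was no limit for the members, which had at least 303 counts in every library. The number of libraries and their series limit the comparisons.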
